A study of Mus musculus with 6 samples.

Results

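A set of 9 genes best known from heart and skeletal muscle fibres, Tnnt2, Actc1, Acta1, Tcap, Ankrd1, Pln, Fabp3, Pgam2 and Mylk4, were followed through the cells of the mouse proximal aorta, where the contractile cell is smooth muscle and not striated muscle. They are 9 of the 31053 mouse genes in the count table, which also holds 2 added sequences, and they were matched by symbol. They were chosen by their measured counts in these same cells, as transcripts of striated muscle that were seen in smooth muscle cells, so their differences between cell types are given here as a description and no test was made on them. Of 30716 cell barcodes, 24972 lay within the study's limits of 1000 to 5000 detected genes, 1500 to 25000 transcript molecules (unique molecular identifiers, UMIs) and a mitochondrial share under 20%.

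Single cells of the aortic root and ascending aorta were measured in 6 mice of 16 weeks on a 129 background, all female by the study's methods, as 3′ UMI counts after flow sorting of DNA-dye-positive, propidium iodide-negative particles. Of these, 4 mice are controls (CTL), of which 2 are Tgfbr1+/+; Wnt2CRE; EGFP-L10a and 2 are Tgfbr1+/+, and the other 2 are LDS mice (Loeys-Dietz syndrome, an inherited aneurysm disorder) that carry 1 mutated copy of the type I TGF-β receptor, Tgfbr1M318R/+. The conditional tracer allele encodes a green fluorescent ribosomal protein (GFP), and the Cre that switches it on is driven by a Wnt2 promoter and described by the study as specific for cells of cardiac neural crest origin. The table separates the 6 libraries only by a barcode suffix, 1 to 6, and neither the labels nor the table tie a suffix to a mouse, so no genotype was compared, and values are given per library or as a median and range over 6 libraries.

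The libraries held 1863 to 6395 cells that passed the filter, with a median of 5572 to 9838 UMIs per cell. By marker genes the cells fell into 13476 fibroblast-like, 10363 vascular smooth muscle (VSMC)-like, 567 endothelial-like and 548 leukocyte-like cells, after 18 cells with 10 or more UMIs of Myh6, the α-myosin heavy chain of cardiomyocytes, had been set apart. Those 18 Myh6-rich cells were in library 3 (7 cells), library 4 (9 cells) and library 5 (2 cells). Libraries 1, 3, 4 and 5 shared many barcode sequences, as did libraries 2 and 6. After the filter, 76 barcode sequences were in more than 1 library, counted over all 6 libraries, and libraries 2 and 6 shared 0. Results without these 76 sequences are in the closing part.

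Striated muscle contracts through sarcomeres, in which calcium binding to the troponin complex lets myosin engage actin filaments anchored at Z-discs. Smooth muscle has no troponin and no sarcomere, and its contraction is set by phosphorylation of the myosin light chain. Of the 9 genes, Tnnt2 encodes cardiac troponin T, Actc1 and Acta1 encode the cardiac and skeletal α-actins, and Tcap encodes telethonin, which caps titin at the Z-disc. Ankrd1 encodes a stretch- and stress-responsive ankyrin repeat protein, and Pln encodes phospholamban, the small inhibitor of the calcium pump of the sarcoplasmic reticulum. Fabp3 encodes the heart fatty acid-binding protein, Pgam2 the muscle phosphoglycerate mutase of glycolysis, and Mylk4 a member of the myosin light chain kinase family.

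The 9 genes lie on 8 chromosomes of the mouse genome (mm10, GENCODE), Tnnt2 at chr1:135836354-135852260 and Fabp3 at chr4:130308595-130315463 on the plus strand, Tcap at chr11:98383811-98384953 and Pln at chr10:53337667-53345987 on the plus strand, and the others on the minus strand. Of these, Actc1 is at chr2:114047282-114053548, Acta1 at chr8:123891769-123894751, Pgam2 at chr11:5801640-5803733, Ankrd1 at chr19:36111961-36120099 and Mylk4 at chr13:32700834-32783954. Promoter sequence was available for 8 of the 9 genes, and that of 5 of them is shown because the cardiac and skeletal actin genes carry the CArG box, the binding motif of serum response factor that smooth muscle contractile genes also use, and because the other motifs here bind factors that muscle types share. Each line gives bases -120 to -21 from the RefSeq start on build GRCm38.p6, 5′ to 3′ along the gene, with CArG boxes, MEF2 sites and the MCAT motif CATTCC (the binding motif of TEAD factors, read on both strands) in capitals. The regions are chr2:114052896-114052995 (minus strand) for Actc1, chr8:123894796-123894895 (minus) for Acta1, chr1:135836214-135836313 (plus) for Tnnt2, chr11:5803817-5803916 (minus) for Pgam2 and chr13:32783985-32784084 (minus) for Mylk4.
Actc1: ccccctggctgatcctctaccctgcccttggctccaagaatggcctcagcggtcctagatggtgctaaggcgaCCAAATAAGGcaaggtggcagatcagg
Acta1: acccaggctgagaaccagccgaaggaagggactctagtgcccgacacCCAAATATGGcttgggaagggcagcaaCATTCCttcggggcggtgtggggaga
Tnnt2: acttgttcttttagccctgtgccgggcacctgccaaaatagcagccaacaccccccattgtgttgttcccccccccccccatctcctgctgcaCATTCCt
Pgam2: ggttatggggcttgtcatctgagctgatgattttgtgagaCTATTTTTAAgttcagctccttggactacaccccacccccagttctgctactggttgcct
Mylk4: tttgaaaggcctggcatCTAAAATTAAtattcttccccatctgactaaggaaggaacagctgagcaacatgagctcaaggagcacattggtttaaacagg
Over 250 bases upstream of the start, the CArG box is in 1.47% of 32851 RefSeq promoters, the MEF2 site in 2.92% and the MCAT motif in 12.6%, with both strands read and overlapping matches counted. RefSeq lists 2 starts for Tnnt2, of which the upstream one is shown, and the 250 bases before the other (chr1:135836739-135836988) hold none of these 3 motifs. The 250 bases of Fabp3 and Pln also hold none of these 3 motifs, and those of Ankrd1 hold 2 MCAT motifs, which start at bases -210 and -123. These letters are matches to a motif and were not tied to binding.

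In VSMC-like cells all 9 transcripts were detected in each of the 6 libraries, and 8 of the 9 were higher there than in fibroblast-like cells of the same library in 6 of 6 libraries. Actc1 was the exception, higher in 5 of 6. All levels are in CPM, the UMIs of a gene scaled to a common UMI total over the summed cells of a type in a library. The 3′ ends of the genes did not share 50-base stretches with other transcripts, apart from Fabp3, where 27.9% of such stretches also occur in the pseudogene Fabp3-ps1, so that part of the Fabp3 counts is uncertain. As background, 7679 genes had a VSMC-like median of 10 CPM or more, and 39.3% of them exceeded their fibroblast-like level in all 6 libraries. Of the 9 genes, 7 reach that level, all but Actc1 and Acta1, and of the 11834 genes of at least 1 CPM, a level that all 9 reach, the share is 32.6%. Because the genes were chosen for being present in smooth muscle cells, nothing is read from their count against these shares.

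Tnnt2 in VSMC-like cells stood at 95.0, 76.4, 108, 122, 181 and 124 CPM in libraries 1 to 6, against 7.75 to 22.5 CPM in fibroblast-like cells, and the ranges did not overlap. Mylk4 stood at 194, 141, 119, 136, 113 and 150 CPM, against 0.763 to 9.54 CPM, the widest separation from fibroblast-like cells of the 9 genes, with a median log2 ratio of 5.98 (ratios here add 0.5 UMI to each sum). Tcap was at 76.8, 88.8, 94.8, 142, 91.7 and 73.1 CPM, with library 4 above the other libraries, against 1.31 to 8.82 CPM in fibroblast-like cells. The levels of these 3 genes lay well above those of fibroblast-like cells in each library.

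Pln was at 57.8, 76.3, 35.7, 65.9, 75.5 and 187 CPM in VSMC-like cells of libraries 1 to 6, and 0.720 to 6.28 CPM in fibroblast-like cells. Pgam2 was at 13.1, 39.7, 18.7, 30.2, 30.0 and 47.4 CPM, and 0.204 to 2.86 CPM. Library 6 was the highest for both of these genes. Fabp3 was at 43.8, 53.9, 47.6, 32.6, 24.6 and 27.5 CPM, against 4.52 to 7.63 CPM. Ankrd1 was at 36.8, 39.6, 30.9, 57.7, 76.3 and 54.4 CPM, and its fibroblast-like range of 3.99 to 32.9 CPM overlapped that of VSMC-like cells, although VSMC-like cells were higher within every library. The skeletal and cardiac actins were rare. Acta1 was at 2.84 to 8.15 CPM in VSMC-like cells and at 0.0440 to 0.557 CPM in fibroblast-like cells. Actc1 was at 1.70, 12.5, 5.76, 5.51, 2.24 and 5.29 CPM in VSMC-like cells, and its fibroblast-like range of 0.356 to 4.05 CPM overlapped it.

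**Figure D1:**
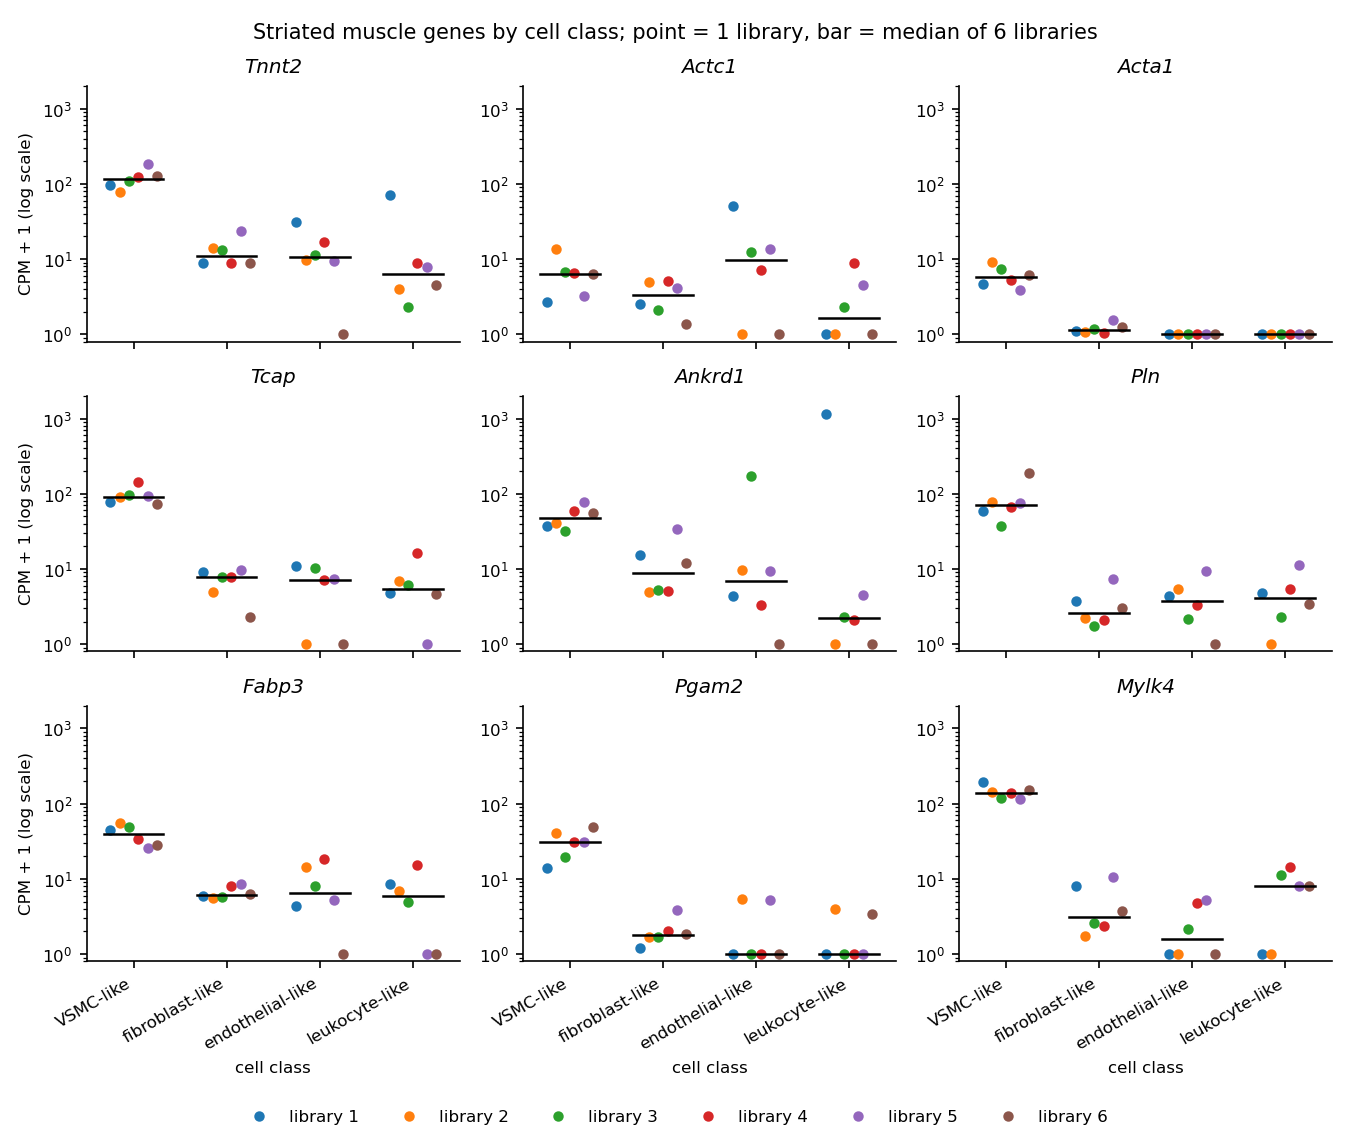
Level of each of the 9 genes (vertical axes, CPM + 1 on a log scale) in 4 cell classes (horizontal axes), with 1 point per library and a bar at the median of 6 libraries. VSMC-like cells sit above the other 3 classes for most genes, Actc1 does not separate, and the single high Ankrd1 point in leukocyte-like cells, at 1139 CPM, is library 1.

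After every cell of at least 3000 UMIs was thinned to 3000, the share of VSMC-like cells with a UMI was 28.2% for Mylk4 (95% exact binomial interval 27.4 to 29.1%, 9800 cells), 19.3% for Tcap, 13.4% for Pln, 13.2% for Tnnt2, 9.06% for Fabp3, 7.07% for Ankrd1 and 5.67% for Pgam2. The same shares in leukocyte-like cells, which serve here as a comparison for free RNA, were between 0.223% and 1.12% over 448 cells. This class is not a pure measure of free RNA. Of its 548 cells, 5.66% were marked as doublets and 8 had 10 or more Myh11 UMIs. Without thinning, the shares were 46.0% in VSMC-like and 2.74% in leukocyte-like cells for Mylk4, and 18.0% and 2.37% for Tnnt2, at a median of 7205 and 5162 UMIs per cell. Of the thinned VSMC-like cells, 0.643% had an Actc1 UMI (interval 0.494 to 0.822%) and 0.622% had one of Acta1. The Actc1 share in leukocyte-like cells was 0.446% (0.0541 to 1.60%), so an excess of Actc1 in the VSMC-like class as a whole over leukocyte-like cells was not detectable at this depth. Acta1 was found in 0 of 448 thinned leukocyte-like cells, which allows a share of up to 0.820%, and in 0 of 413 thinned endothelial-like cells (up to 0.889%). These intervals cover counting error only.

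In leukocyte-like and endothelial-like cells, the counts of Ankrd1 came from few cells. Of 308 Ankrd1 UMIs in leukocyte-like cells, 305 were in 1 cell, and of 159 in endothelial-like cells, 75.5% were in 3 cells. In fibroblast-like cells, 901 Ankrd1 UMIs were in 281 cells, 48.4% of them in the 21 cells with 10 or more. Endothelial-like cells held 19 Myh6 UMIs. Their Tnnt2 was 2.37 UMIs per Myh6 UMI and their Actc1 was 2.05, against 1.78 and 1.09 in Myh6-rich cells, and Pln in endothelial-like cells was 0.526 per Myh6 UMI, against 0.346.

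Cardiomyocytes make most of these transcripts, so the level that free cardiomyocyte RNA would give was set from Myh6. In the 18 Myh6-rich cells pooled, Tnnt2 was at 13268 CPM, Actc1 at 8109, Fabp3 at 5207, Tcap at 3026, Pln at 2579, Ankrd1 at 915, Pgam2 at 626, Acta1 at 13.8 (2 UMIs) and Myh6 at 7449 CPM. Mylk4 had 0 UMIs in them. All 133 Ankrd1 UMIs of these cells were in library 4, and the 9 and 7 cells of libraries 4 and 3 gave 1.74 and 1.79 Tnnt2 UMIs per Myh6 UMI. Libraries 1, 2 and 6 had no such cell, so the pooled ratio was used for all libraries. VSMC-like cells held 169 Myh6 UMIs, or 2.06 CPM, from which free RNA would give 3.67 CPM of Tnnt2, 1.44 of Fabp3, 0.837 of Tcap, 0.714 of Pln, 0.253 of Ankrd1 and 0.173 of Pgam2. The measured levels over all libraries were 33.9 times that for Tnnt2, 25.8 times for Fabp3, 113 times for Tcap, 108 times for Pln, 164 times for Pgam2 and 205 times for Ankrd1. The same ratios in fibroblast-like cells were 9.14 for Tnnt2, 11.3 for Fabp3 and 21.1 for Tcap. They were 8.05 for Pln, 16.95 for Pgam2 and 111 for Ankrd1 there, so a high ratio was not particular to VSMC-like cells. Per library the VSMC-like ratio varied, for Fabp3 from 8.23 in library 5 to 118 in library 3.

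Actc1 was different. It stood at 4.90 CPM over all VSMC-like cells against 2.24 CPM from free cardiomyocyte RNA, a ratio of 2.19. In VSMC1-like cells, the larger smooth muscle subtype described next, Actc1 was at 1.96 CPM, or 0.785 times the level that their Myh6 would give. In VSMC2-like cells it was at 19.6 CPM, 14.0 times the level from Myh6. Per library, the VSMC1-like cells held 1, 70, 10, 19, 23 and 0 Actc1 UMIs beside 14, 23, 6, 14, 83 and 4 Myh6 UMIs. The level was above that from Myh6 in libraries 2, 3 and 4 (2.80, 1.53 and 1.25 times) and below it in libraries 1, 5 and 6 (0.0656, 0.255 and 0 times). The pooled value rests on 2 libraries, as it was 1.51 times without library 5, which held 83 of the 144 Myh6 UMIs, and 0.402 times without library 2. Of the 123 Actc1 UMIs of VSMC1-like cells, 48.0% were in 2 cells of 1 library, which by these counts can only be library 2. VSMC2-like cells held 25, 69, 60, 53, 21 and 47 Actc1 UMIs beside 7, 1, 0, 3, 7 and 0 of Myh6, so Actc1 outnumbered Myh6 there in 6 of 6 libraries.

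**Figure D2:**
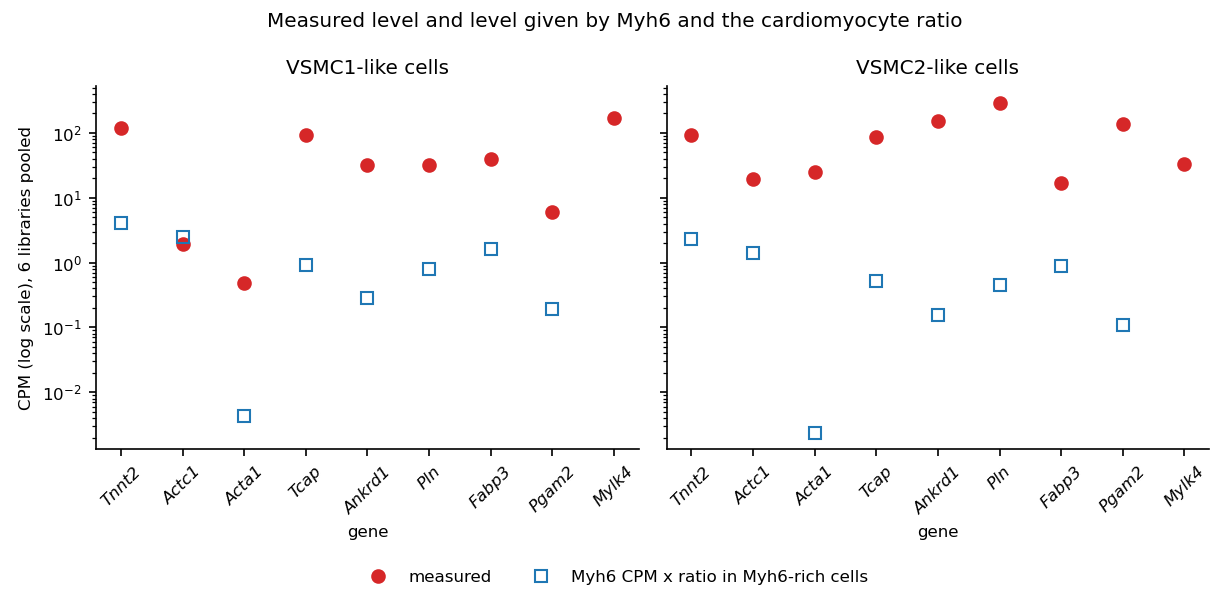
Measured level of each gene (filled circles, CPM on a log scale, 6 libraries pooled) and the level that the Myh6 of the same cells and the ratio in Myh6-rich cells would give (open squares), in VSMC1-like and VSMC2-like cells. The pooled level is above the square for every gene but Actc1 in VSMC1-like cells, where it is 0.785 times the square in the pool, 1.51 times without library 5, and above it in 3 of 6 libraries. Mylk4 has no square because Myh6-rich cells had no Mylk4 UMI.

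Most genes of the cardiomyocyte and skeletal fibre marker lists were near 0 in the smooth muscle cells. Some sarcomere and calcium handling genes outside these lists were not, and they are described below. Of the 10 cardiomyocyte markers, Myl2 had 0 UMIs in VSMC-like cells, Mybpc3 had 2, Myl3 had 3, and the median level was 0.817 CPM for Tnni3, cardiac troponin I, and 0.0739 for Myl7, the atrial light chain. The summed list stood at 38.8 to 60.4 CPM, and 2 of its genes gave nearly all of that, Ryr2 with a median of 26.2 CPM and Myl4 with 17.7 CPM. Of the 10 skeletal fibre markers, Myh4 had 0 UMIs, Myh1 had 1, Myh2 and Tnni2 had 2 each, and the sum was 3.83 to 9.77 CPM, against 7.83 to 13.0 CPM in fibroblast-like cells. The other skeletal markers had more UMIs in VSMC-like cells, Ckm 167, Tnnt3 141, Mylpf 87, Tnnc2 46, Actn3 40 and Pvalb 8. Acta1 was at 4.73 CPM over all VSMC-like cells, and its source was not tested.

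The VSMC-like cells were clustered again without any of the 9 genes among the variable features. At the coarse level 7927 cells (76.5%) formed a cluster with higher Tes and Ptprz1, called VSMC1-like, and 1785 cells (17.2%) a cluster with higher Enpep and Notch3, called VSMC2-like. The study uses the former pair of genes as marks of the distal ascending aorta and the latter as marks of the root. The remaining clusters, of 404 cells led by Cd74 and other MHC class II genes and of 247 cells led by Prrx2 and Rgs5, belong to neither. The 9 genes were left out of this clustering, but genes that vary with them were not, so a difference between the clusters is a description.

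The 9 genes split between the subtypes. In 6 of 6 libraries Pln, Pgam2, Acta1, Actc1 and Ankrd1 were higher in VSMC2-like cells, Mylk4 and Fabp3 were lower in 6 of 6, and Tnnt2 and Tcap were lower in 5 of 6. Of the 7679 genes from 10 CPM, 12.2% favoured VSMC2-like cells in every library and 22.0% favoured VSMC1-like cells in every library, and among the 11834 of at least 1 CPM the shares were 12.4% and 17.7%. Of the 7 genes of at least 10 CPM, 3 were higher (Pln, Pgam2, Ankrd1) and 2 lower. Since the genes were selected on these cells, the shares are given beside the counts only as background. The median log2 ratio over the 7679 genes was -0.06.

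Pln, the inhibitor of the calcium pump, had 280, 278, 152, 194, 275 and 705 CPM in VSMC2-like cells of libraries 1 to 6. In VSMC1-like cells it had 30.8, 25.2, 16.4, 23.7, 37.3 and 63.2 CPM. Every VSMC2-like value was above every VSMC1-like value, and the log2 ratio was narrow, from 2.88 to 3.48 with a median of 3.20, or about the same factor in a library with low Pln (library 3) and in the library with the highest (library 6). After thinning, a Pln UMI was present in 39.5% (37.2 to 41.8%) of cells of the VSMC2-like subtype and in 7.97% of those of the VSMC1-like one.

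Pgam2, the glycolytic mutase of muscle, had 85.5, 176, 117, 118, 124 and 208 CPM in VSMC2-like cells and 3.79, 4.72, 1.41, 1.12, 12.0 and 8.65 CPM in VSMC1-like cells. The ranges lay far apart, with log2 ratios from 3.37 in library 5 to 6.62 in library 4 and a median of 4.88. A Pgam2 UMI was found in 25.2% of thinned VSMC2-like and 1.51% of VSMC1-like cells. Its close relative Pgam1, the form of other tissues, was slightly lower in VSMC2-like cells, with a median log2 ratio of -0.31.

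Of the striated muscle α-actins, Acta1 sat almost wholly in VSMC2-like cells and Actc1 did less so. Acta1 had 45, 90, 76, 54, 55 and 35 UMIs there, or 16.2 to 42.8 CPM, against 11, 1, 2, 1, 6 and 9 UMIs, or 0.112 to 1.32 CPM, in VSMC1-like cells, which were 7927 in number against 1785. Of the 388 Acta1 UMIs of VSMC-like cells, VSMC2-like cells held 355. The Actc1 level was 6.19 to 33.8 CPM in VSMC2-like and 0 to 8.69 CPM in VSMC1-like cells, ranges that overlapped. Of the 402 Actc1 UMIs of VSMC-like cells, VSMC2-like cells held 275 and VSMC1-like cells 123, and library 2 had 69 and 70 of them. In VSMC1-like cells 48.0% of the Actc1 UMIs were in 2 cells, which by these counts can only be in library 2. The highest VSMC1-like level, 8.69 CPM in that library, therefore rests mainly on these cells. In VSMC2-like cells 48.4% were in 7 cells. Because several VSMC1-like sums of the actins were 3 UMIs or fewer, their log2 ratios, 3.82 to 7.48 for Acta1 and 1.78 to 7.87 for Actc1, depend on the 0.5 UMI that was added, and the median for Acta1 was 5.91 with 0.5 UMI and 4.29 with 5 UMIs. Acta2, the smooth muscle α-actin, was slightly lower in VSMC2-like cells, with a median log2 ratio of -0.12, so these differences did not run through all α-actins.

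Ankrd1 had 158, 108, 39.9, 161, 243 and 131 CPM in VSMC2-like cells and 23.1, 21.4, 30.9, 25.4, 45.1 and 36.9 CPM in VSMC1-like cells. The log2 ratio was 1.83 to 2.77 in 5 libraries and 0.37 in library 3, where VSMC2-like cells stood at 39.9 CPM, within the range of VSMC1-like cells. Ankrd1 responds to stress. Of the 7679 genes from 10 CPM, 12.2% favoured VSMC2-like cells in 6 of 6 libraries. Among 19 genes known to be induced by tissue dissociation, 17 did so. Their summed level was 14554 to 28708 CPM in VSMC2-like and 9088 to 21478 CPM in VSMC1-like cells, with a list median log2 ratio of 0.94. Whether this moves Ankrd1 was not tested.

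Mylk4, the kinase family member, ran the other way. It had 43.6, 31.8, 32.1, 48.6, 20.9 and 24.3 CPM in VSMC2-like cells and 225, 177, 141, 173, 134 and 187 CPM in VSMC1-like cells, with no overlap and log2 ratios of -2.94 to -1.83. Fabp3 had 12.7 to 20.5 CPM in VSMC2-like and 26.0 to 62.3 CPM in VSMC1-like cells, again without overlap, at a median log2 ratio of -1.32. Tcap was nearly level, 53.2 to 155 CPM against 74.4 to 131 CPM, with a median log2 ratio of -0.34 and library 4 at 0.24. Tnnt2 was at 64.7 to 165 CPM against 68.6 to 187 CPM, with a median of -0.59, but in library 1 its log2 ratio was 1.26.

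**Figure D3:**
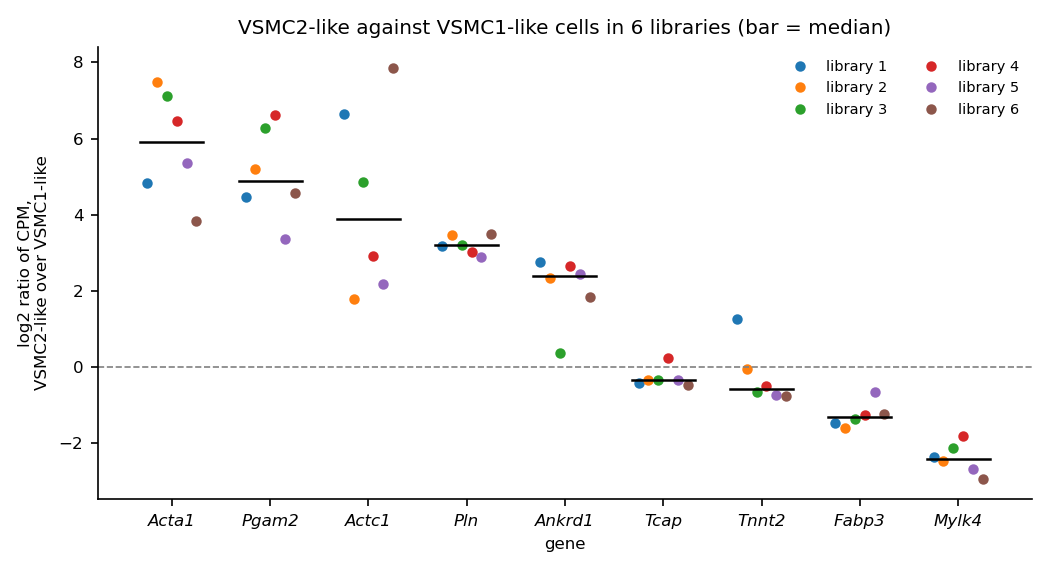
Log2 ratio of CPM of VSMC2-like over VSMC1-like cells (vertical axis) for each gene (horizontal axis), with 1 point per library and a bar at the median. Pln, Pgam2, Acta1, Actc1 and Ankrd1 are above 0 in every library, Mylk4 and Fabp3 are below 0 in every library, and Acta1 and Actc1, whose VSMC1-like sums hold few UMIs, spread widest.

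Marked doublets and the fibroblast gene Dcn were also higher in VSMC2-like cells. Such doublets made up 9.13% of the smaller subtype and 1.49% of the larger, and Dcn was at 1308 against 152 CPM. The highest values lay in 1 of the 6 finer subclusters, number 3, led by Cd74, Cygb and Dcn, in which 19.1% of 733 cells were marked. In subcluster 2, described next, 1.57% of cells were marked and Dcn was at 332 CPM, against 156 CPM in subcluster 0. Without subcluster 3 the median log2 ratio was 3.58 for Pln, 5.14 for Pgam2, 4.48 for Actc1, 6.24 for Acta1, 2.43 for Ankrd1, -2.85 for Mylk4 and -1.47 for Fabp3, each further from 0 than with it. For Tnnt2 it was -1.10 in place of -0.59, and for Tcap it was -0.19, with 2 of 6 libraries above 0. The part of these measures in the levels of the 9 genes was not tested.

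At the finer level the genes showed 4 patterns rather than 1. Subcluster 2 (1467 cells led, besides Pgam2 itself, by Thbs1, Olfr558 and Gja4) had the highest median of 5 genes. Pln was at 234 to 766 CPM there, above the next subcluster in 6 of 6 libraries, Pgam2 at 105 to 228, Acta1 at 17.9 to 67.0 and Actc1 at 6.85 to 52.0 CPM, each also above the next in 6 of 6. Ankrd1 was highest there too, at 35.2 to 242 CPM, but above the next subcluster, number 3, in 5 of 6 libraries only, and the ranges overlapped. In this subcluster 46.5% of thinned cells had a Pln UMI and 29.7% a Pgam2 UMI.

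Troponin T peaked elsewhere. Tnnt2 was highest in subcluster 3, at 510, 180, 232, 282, 448 and 273 CPM, above subcluster 0 (75.0 to 197 CPM) in 6 of 6 libraries. In the coarse cluster of 404 MHC class II cells, of which 0 were marked as doublets, Tnnt2 was at 199 to 576 CPM and Dcn, a fibroblast gene, at 973 CPM. Fibroblast marker genes summed to 4027 to 9073 CPM in subcluster 3, against 691 to 1253 CPM in subcluster 0, and their part in the Tnnt2 level was not tested. Subclusters 1 and 2 did not differ in Tnnt2 beyond their spread. In the 251 cells of subcluster 5 (18 to 71 per library), led by Prrx2 and Rgs5, Tnnt2 was nearly missing, with 4 UMIs in all and 0 in 3 of the 6 libraries.

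Subcluster 5 stood out for Fabp3 and Tcap instead. Fabp3 was at 106, 153, 106, 109, 80.0 and 57.5 CPM there, above the next subcluster in 6 of 6 libraries, and Tcap was at 47.4 to 239 CPM, highest by the median and above the next subcluster in 4 of 6. Acta1, Actc1 and Pgam2 had 0 UMIs in it. The pericyte marker list, of which Rgs5 is part, summed to 4709 to 8158 CPM in this subcluster and to at most 958 CPM in the others, with Vtn and Higd1b at 0, and its part in these levels was not tested. Rgs5 alone, which leads the subcluster, was at 5841 CPM over its pooled cells, so the sum is mostly that of Rgs5. Mylk4 was highest in subclusters 1 (162 to 285 CPM) and 4 (164 to 247 CPM, led by Igfbp2), which did not differ from each other, and lowest in subcluster 2 (14.1 to 44.2 CPM). Subcluster 1 was led by Malat1 (70151 CPM, against 32730 in the other smooth muscle cells). Its median was 4098 UMIs per cell, against 7895 in subcluster 0, and the part of these measures in its Mylk4 level was not tested.

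**Figure D4:**
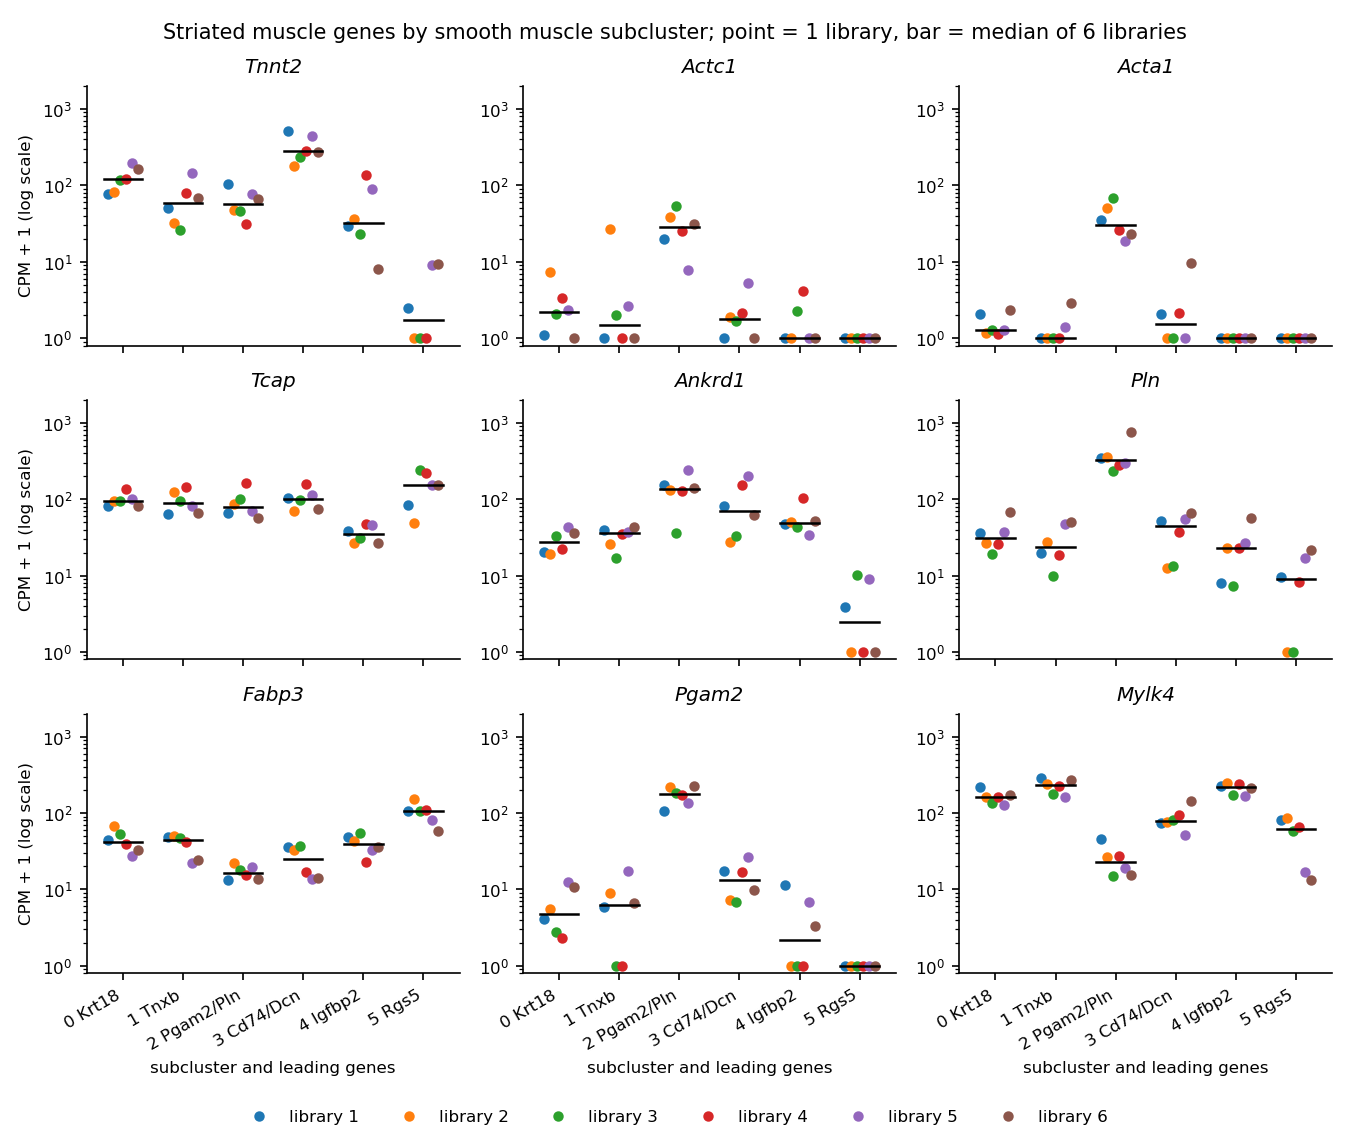
Level of each gene (vertical axes, CPM + 1 on a log scale) in the 6 finer smooth muscle subclusters (horizontal axes, named by number and leading genes), with 1 point per library and a bar at the median. Pln, Pgam2, Acta1 and Actc1 peak in subcluster 2, Tnnt2 in subcluster 3, Fabp3 in subcluster 5, and Mylk4 is lowest in subcluster 2.

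Some of these transcripts were concentrated in few cells. Of 10200 Tnnt2 UMIs in VSMC-like cells, 55.0% came from the 279 cells (2.69%) that had 10 or more, and 1 cell had 125. For Actc1, 402 UMIs came from 110 cells, 47.8% of them from 9 cells. Ankrd1 had 44.8% of its UMIs in 86 cells. Mylk4 was spread more evenly, with 4768 of 10363 cells positive and only 4.51% of its UMIs in cells of 10 or more. The same measure was 92.5% for Myh11, the smooth muscle myosin heavy chain, and 74.0% of all VSMC-like cells reached 10 UMIs of that gene. Myh11 was at 2445 CPM in VSMC-like cells, against 124 CPM for Tnnt2 and 51.9 CPM for Ankrd1. A fixed limit of 10 UMIs follows abundance, so the spread of Myh11 cannot be compared with theirs by it.

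The 279 Tnnt2-high cells together had 18 Myh6 UMIs, or 6.27 CPM against 1.23 CPM in cells without Tnnt2, and Myh11 at 2294 against 2473 CPM. They were found in every library, 24 to 98 per library. Mylk4 was at 42.9 CPM in them and at 156 CPM in cells without a Tnnt2 UMI, lower in 6 of 6 libraries. Acta1 had 1 UMI in these cells. The 86 Ankrd1-high cells had Tnnt2 at 397 CPM against 120 CPM in cells without Ankrd1, higher in 6 of 6 libraries, and Tcap at 53.7 against 102 CPM, lower in 6 of 6. In the 99 Pln-high cells, Pgam2 was at 334 against 8.91 CPM, higher in 6 of 6 libraries, and Mylk4 at 29.2 against 157 CPM.

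Detection of pairs in the same cell was counted over 9800 VSMC-like cells thinned to 3000 UMIs. It was compared with the number expected if the 2 genes were independent within each library, and it followed the subtypes only in part. Pln and Pgam2 were both found in 287 cells, 3.60 times the expected 79.8. Acta1 came with Pgam2 in 35 cells (10.2 times an expected 3.43) and with Pln in 43 cells (5.36 times). When the expectation was also set within the 6 subclusters, these ratios were 1.37, 2.28 and 1.85, and that of Pln and Pgam2 was above 1 in each of the 6 libraries (1.15 to 1.67). Within subclusters Pln with Tnnt2 (1.31) and Tcap with Pgam2 (1.30) came close to that ratio, although Tnnt2 and Tcap were not higher in VSMC2-like cells. Tnnt2 and Mylk4 were found together in 185 cells, 0.522 times the expected number, and 0.525 times within subclusters, below 1 in 6 of 6 libraries (0.324 to 0.861).

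Ankrd1 did not pair with Pln and Pgam2 in this way, although all are higher in VSMC2-like cells. Ankrd1 and Pgam2 shared 39 cells, 0.528 times the number expected within subclusters, and Ankrd1 and Pln shared 101 cells, 0.699 times, both below 1 in 6 of 6 libraries. Ankrd1 and Tnnt2 shared 138 cells, 1.49 times the expected number, above 1 in 5 of 6 libraries. Cells are not replicates, all cells of a library share its free RNA, and these ratios are descriptions. At least 3 of the 9 genes were found after thinning in 10.6% of VSMC2-like cells, in 3.87% of VSMC1-like cells, and in 0.139% of fibroblast-like cells.

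**Figure D5:**
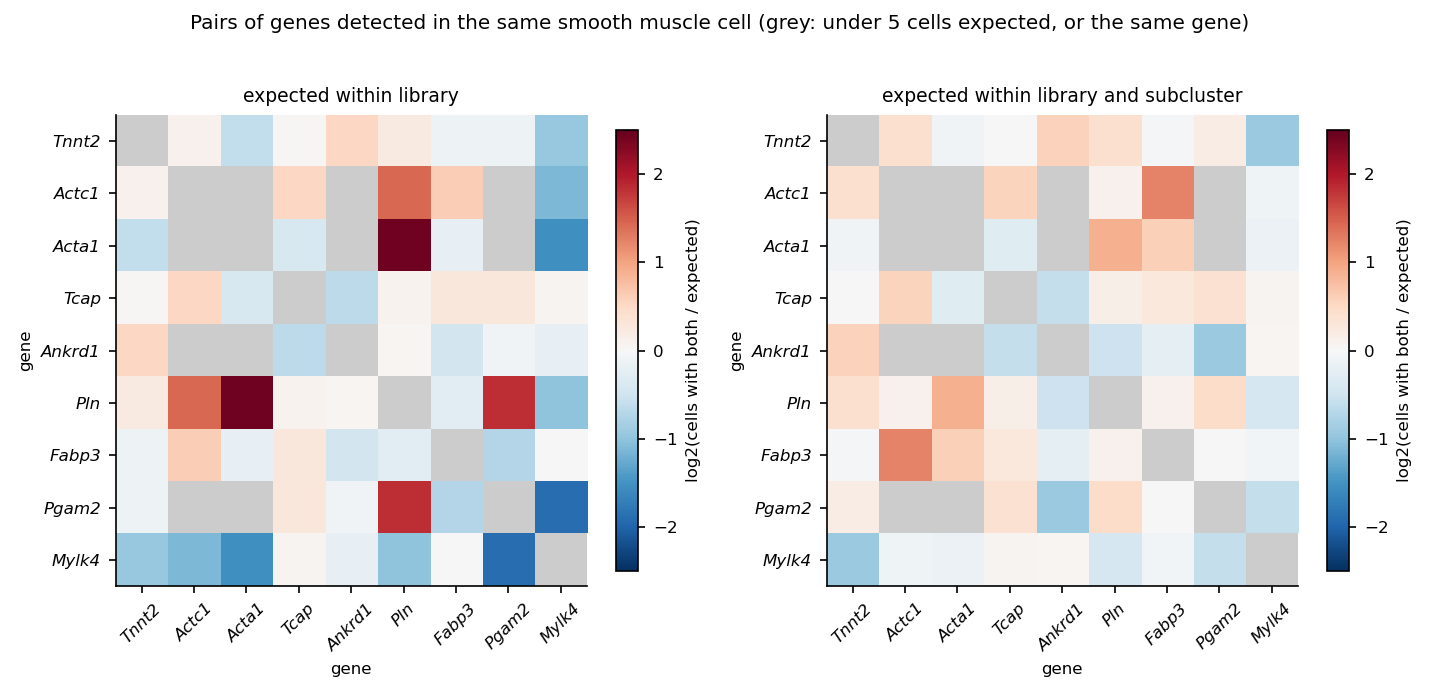
Log2 of the number of VSMC-like cells with both genes over the expected number (colour), for each pair of genes (both axes), with the expectation set within libraries (left) or within libraries and subclusters (right), and grey where under 5 cells were expected. Tnnt2 with Mylk4 is blue in both panels (0.522 and 0.525 times), whereas Pln with Pgam2 falls from 3.60 to 1.37 times.

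Levels were also compared over the 34 pairs of library and subcluster with at least 20 cells, as Pearson's r of log2(CPM + 1) centred within libraries. It was 0.89 for Pln and Acta1, 0.89 for Acta1 and Pgam2 and 0.88 for Pln and Pgam2, and these points share libraries and cells, so no test was made. Unlike in the pairs within cells, Ankrd1 was as close to Pln (0.62) and Pgam2 (0.63) as to Tnnt2 (0.63). Tnnt2 and Mylk4 had an r of 0.15. Genes most like Pln were Pkig, Rap1a and Enpep (r of 0.92, 0.91 and 0.90), and those most like Pgam2 were Gja4, Fhl2 and Pkig (0.93, 0.93 and 0.92). Pkig also led for Acta1 (0.93, then Prkar1a and Trim2) and Actc1 (0.86, then Cdc42ep3 and Ptp4a3). For Tnnt2 they were Gm34030, Tm4sf1 and Bmp3 (0.93, 0.91 and 0.86), for Fabp3 Cnn3, Sema3c and Foxf1 (0.92, 0.91 and 0.87) and for Mylk4 Tpd52l1, Suclg2 and Aebp1 (0.96, 0.95 and 0.94). Tcap had the loosest neighbours, Chst2, Enpp2 and Ccdc34 (0.85, 0.84 and 0.83), and those of Ankrd1 were Gm13889, Aldoa and Reep3 (0.87, 0.86 and 0.85).

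Most other sarcomere genes were low. Of 55 sarcomere genes measured, 29 were under 1 CPM in VSMC-like cells and 6 reached 10 CPM. In VSMC2-like cells, 0 of these 6 were higher and 4 were lower in every library. Over all 7679 genes from 10 CPM the shares were 12.2% and 22.0%, which are the background for the lists below too. Myom1, a protein of the M-band (98.7 CPM, median log2 ratio -0.33), Ldb3, a Z-disc protein (85.2 CPM, -0.12), and Tmod1, which caps actin filaments (35.1 CPM, -0.13), were the most abundant. Myoz2, a calcineurin-binding Z-disc protein, showed the largest difference of the 6, from 35.2 CPM in VSMC1-like down to 3.65 CPM in VSMC2-like cells, lower in 6 of 6. Myl4 was at 16.1 and 23.7 CPM, with VSMC2-like cells higher in 5 of 6 libraries. Among these 6 genes, none had the direction of Pln, Pgam2 and the actins in all 6 libraries.

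Around Pln, the calcium handling list had 5 of 16 genes at 10 CPM or more, of which VSMC2-like cells had 0 higher and 4 lower in every library, with a list median log2 ratio of -0.53. Atp2a2, the pump that phospholamban inhibits, was at 595 CPM in VSMC1-like cells, compared with 460 CPM in the other subtype (median log2 ratio -0.22, lower in 6 of 6). Jph2, a junctional membrane protein, was at 136 and 98.3 CPM, Asph at 172 and 122 CPM, Casq1, the calcium store protein calsequestrin, at 18.1 and 4.89 CPM, each lower in 6 of 6, and Ryr2 at 28.0 and 21.1 CPM, lower in 5 of 6. Of the calcium store genes under 10 CPM, Hrc (5.33 and 9.22 CPM, median log2 ratio 0.71) was higher in VSMC2-like cells in each library, and Casq2 (4.22 and 6.67 CPM, 0.65) in 4 libraries, both named after their values were seen.

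Of 6 muscle metabolism genes at 10 CPM, 1 was higher in all 6 libraries and 2 were lower. The higher one was Fabp5 (28.0 and 55.1 CPM in VSMC1-like and VSMC2-like cells), a relative of Fabp3, while Ldhb (154 and 106 CPM) and Pgam1 were the lower ones. Fabp4 (166 and 97.6 CPM) was lower in 5 of 6, and Pygm (20.2 and 21.4 CPM) was level. Of the actins among the paralogs, Actb had 20070 CPM over VSMC-like cells and a median log2 ratio of 0.09, and Actg1 had 2605 CPM and 0.34, higher in 6 of 6.

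Among 31 measured regulators of muscle genes, 16 reached 10 CPM, 3 were higher in VSMC2-like cells in all 6 libraries and 0 lower. The shares over the 7679 genes from 10 CPM were 12.2% and 22.0%. Tbx20 (14.9 and 52.8 CPM in VSMC1-like and VSMC2-like cells) and Gata4 (10.2 and 36.6 CPM), both heart transcription factors, led with median log2 ratios of 1.89 and 1.77. In fibroblast-like cells their medians were 73.8 and 28.2 CPM, and the part of marked doublets in these ratios was not tested. The other gene higher in all 6 was Tead1 (44.8 and 57.9 CPM), at 0.44. Mef2c (348 CPM in VSMC-like cells, median log2 ratio 0.08), Mef2a (167 CPM, -0.06), Gata6 (127 CPM, -0.26) and Tead3 (45.1 CPM, -0.27) were near level. Of 12 targets of YAP and TEAD at 10 CPM, 4 were higher in all 6 libraries, led by Crim1 (1.27) and Cyr61 (0.78), 2 were lower, Flna (-0.44) and Vcl (-0.20), and Ctgf (0.06), Tpm1 (0.22) and Cald1 (0.20) had the highest levels. Of the dissociation genes, Ier3 (1.66) and Ier2 (1.35) had the highest ratios, Klf6 (-0.12) and Hsp90aa1 (0.05) the lowest, and Fos, Jund and Junb the highest levels.

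The tracer could be read in 4 libraries, numbers 1 to 4, which held 157 to 263 GFP UMIs each, against 8 and 6 in libraries 5 and 6, although the labels give the tracer to 2 mice. Between 64 and 156 VSMC-like cells per library had a GFP UMI. Pgam2, Pln and Fabp3 were lower in cells with GFP in 4 of 4 libraries, with median log2 ratios of -1.63, -1.05 and -0.14. Of the 7679 genes from 10 CPM, 10.9% were lower with GFP in all 4 libraries and 7.53% were higher, given here only as background. Mylk4 was higher in 3 of 4, with a median of 0.19. For Tnnt2 the libraries went opposite ways. It was at 17.4 and 13.4 CPM in cells with GFP against 104 and 85.0 CPM without in libraries 1 and 2, and at 200 and 221 CPM against 104 and 116 CPM in libraries 3 and 4. Within VSMC1-like cells alone, Pln and Pgam2 were lower with GFP in 3 of 4 libraries and Fabp3 in 4 of 4, beside 10.6% of the same 7679 genes lower and 6.75% higher in all 4. A cell without a GFP UMI can still carry the tracer, and the counts behind these values are small, as with 3 Pgam2 UMIs in the GFP cells of library 1.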

How the data were processed

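The authors aligned 10x 3′ v3 reads to mm10 and aggregated 6 libraries with Cell Ranger (version 6 per the labels), and they deposited the raw UMI counts per gene and cell that were used here. The file holds 0 columns of other samples. Cells were filtered by the study's limits, normalized and integrated over libraries with SCTransform v2 and RPCA in Seurat 5.3.0 (R 4.3.3, 3000 variable genes, 30 components, resolution 0.25), and named by marker lists. Smooth muscle cells were clustered again at resolutions of 0.05 and 0.1 with all listed genes left out of the variable features. Doublets were marked by scrublet (the top 5% of scores in libraries 2 and 5, where it marked under 0.5%) and kept in the main results. Cells with 10 or more Myh6 UMIs were left out. Sums of counts per cell type and library were divided by total UMIs (CPM), and log2 ratios add 0.5 UMI. No p-value was computed, because the genes were chosen on these data and cells are not replicates, and genotypes were not compared, because barcodes are not tied to mice. The ratio was tested on simulated data. The total depth was 18218282 to 38105145 UMIs per library over the cells kept, and shares carry 95% exact intervals.

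The genes and lists were chosen with earlier results of these data known. Genes were named by rule: the 9 genes, the extremes and most abundant genes of each list, and for each of the 9 the 3 genes most like it. Marker genes, Tead1 and the genes said to be named after their values were seen are outside that rule. The aggregation header names another Cell Ranger version than the labels. Promoters are RefSeq's on GRCm38.p6, which is mm10. Alternatives were other Myh6 limits, doublets removed, clustering without integration, a finer resolution, a larger prior, means over cells, thinned counts and leaving out each library.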

Additional observations from a re-analysis of the deposited data

Results flagged for a closer look

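Of 27 sets of 6 library values, 4 held a value whose gap to the others, divided by the range of the set, exceeded Dixon's critical value at the 95% level, and chance alone flags about 1 in 20 sets. For Pln in VSMC-like cells it was library 6, at 187 CPM, where VSMC1-like and VSMC2-like cells were both above the other libraries. For Tcap it was library 4, at 142 CPM in VSMC-like cells and with a log2 ratio of VSMC2-like to VSMC1-like cells of 0.24, the only one above 0. For Tnnt2 it was the log2 ratio of 1.26 in library 1, where VSMC2-like cells had 165 and VSMC1-like cells 68.6 CPM.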

How the results depend on the processing

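The counts of genes higher or lower in all libraries stayed within 1.5 times under every alternative that was run, as did the number of genes above 3 times the free cardiomyocyte RNA level. Without the subcluster richest in doublets, and at the next finer resolution, the median log2 ratio of VSMC2-like to VSMC1-like cells was 3.58 for Pln in place of 3.20, and for Mylk4 it was -2.85 and -2.84 in place of -2.42. A prior of 5 UMIs gave 4.29 for Acta1 in place of 5.91. No median log2 ratio of a gene with 1 direction in 6 libraries changed sign, with the barcodes shared between libraries removed included. Clustering the smooth muscle cells after log normalization without integration gave no pair of large subclusters, so that alternative has no value for the subtypes. The removal of shared barcodes and of that subcluster was chosen after seeing the data. Levels under 1 CPM rest on few UMIs, and the actins in VSMC1-like cells are limited by depth. No paired analysis was possible because the columns carry no replicate number of the labels and the result comes from no test, and every ratio was formed within a library.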
